A study of Mus musculus with 12 samples.

Results

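Dual-specificity MAP kinase phosphatases are enzymes that take the phosphate off both the threonine and the tyrosine that switch a MAP kinase on. The 6 described here, Dusp1, Dusp3, Dusp4, Dusp6, Dusp8 and Dusp16, were followed in embryonic mouse brain when the co-activator YAP was raised and when Nf2, an upstream brake on YAP, was removed. All probe sets that the array's annotation assigns to 1 of these symbols alone were taken, which gave 11 probe sets out of 28898 with a single gene symbol and 6 genes out of 17097. There were 3 probe sets for Dusp3, 3 for Dusp8, 2 for Dusp16 and 1 each for Dusp1, Dusp4 and Dusp6. The genes were chosen with their changes in these experiments already known, so their values are a description and carry no test.

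There were 4 groups of 3 arrays, in 2 experiments. In the YAP experiment, forebrain and midbrain came from embryos at E11.5. The overexpression group had the genotype TetO-YAP1;Nes-rtTA, in which the tetracycline transactivator is made under the Nestin promoter of neural progenitors and turns on a YAP1 transgene with the S127A change. The YAP controls carried Nes-rtTA without the transgene, and dams were given food with doxycycline at 200 mg/kg from E7.5. In the Nf2 experiment, dorsal telencephalon came from embryos at E13.5. The knockouts were Nf2F/F;Emx1-Cre and the controls Nf2F/+;Emx1-Cre, so both groups had Cre in the telencephalon and the controls also lost 1 copy of Nf2 in the cells that made Cre. The genetic background was mixed in all 4 groups, cells outside the reach of each driver kept their normal state, and the labels do not say whether embryos were pooled or each array was a separate embryo. What the p-values measure is thus the spread among the deposited arrays, and that spread may be technical.

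The classical members carry a domain that docks onto MAP kinases and differ in place and preference. Dusp1 and Dusp4 encode inducible nuclear enzymes, Dusp6 a cytoplasmic enzyme with a strong preference for ERK, and Dusp8 and Dusp16 enzymes that prefer the stress kinases JNK and p38. Dusp3 encodes a small atypical enzyme without the docking domain. Several of these genes are themselves induced by MAP kinase signalling, and Dusp6 is widely used as a marker of FGF signalling through ERK in the embryo.

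The arrays within a group correlated with r from 0.993 to 0.996 across probe sets. The median of an array was between 5.03 and 5.1 at E11.5 but between 4.3 and 4.42 at E13.5, so only differences from the controls of the same experiment were compared. A value is the log2 intensity of a probe set, 1 unit being a doubling, and a level says nothing when set against that of another probe set. Neither manipulated gene passed the test: Yap1 differed by 0.27 (SE 0.08, limma adjusted p = 0.0957) in the YAP experiment and Nf2 by -0.38 (SE 0.10, limma adjusted p = 0.393) in the knockouts. Whether the Yap1 probes read the transgene and the Nf2 probes the deleted part is not known here. The YAP reporters Ccn1 and Ccn2 rose in both experiments, the first by 1.93 and 1.02 and the second by 2.5 and 2.03 (limma adjusted p at most 0.0031). Sox2 and Pax6, genes of neural progenitors, and Emx2 and Lhx2, genes of the early forebrain, lay at least 4.12 above the array median in every group. Emx1, another forebrain gene, lay at 0.38 and -0.17 from the array median in YAP controls and overexpression. In Nf2 controls and knockouts Emx1 lay at 2.94 and 2.8 from the array median. En2, a midbrain gene, lay 4.36 above it in both YAP groups, while the midbrain genes En1, Pax5 and Lmx1b lay below it there.

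The promoters of 5 members were held by the RefSeq table used here (GRCm38.p6), and Dusp4 was not among them. The 250 bases before the start site of Dusp3 and Dusp16, the members that were higher in both experiments, and of Dusp1, which was lower, are shown 5′ to 3′ in the direction of transcription. Capitals mark a cAMP response element, TGACGTCA, and are absent where no searched motif was found.

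Dusp3, minus strand of chr11:101984792-101985041: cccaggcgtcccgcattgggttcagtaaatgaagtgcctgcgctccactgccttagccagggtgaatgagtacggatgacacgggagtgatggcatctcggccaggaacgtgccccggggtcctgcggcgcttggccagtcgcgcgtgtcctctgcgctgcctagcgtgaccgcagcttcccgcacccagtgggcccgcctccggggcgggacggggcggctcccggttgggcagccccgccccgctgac
Dusp16, minus strand of chr6:134792629-134792878: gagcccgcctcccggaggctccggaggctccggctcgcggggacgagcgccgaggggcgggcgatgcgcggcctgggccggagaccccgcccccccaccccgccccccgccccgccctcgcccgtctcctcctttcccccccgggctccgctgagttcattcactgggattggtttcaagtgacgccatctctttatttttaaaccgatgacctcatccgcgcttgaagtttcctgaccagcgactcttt
Dusp1, minus strand of chr17:26508473-26508722: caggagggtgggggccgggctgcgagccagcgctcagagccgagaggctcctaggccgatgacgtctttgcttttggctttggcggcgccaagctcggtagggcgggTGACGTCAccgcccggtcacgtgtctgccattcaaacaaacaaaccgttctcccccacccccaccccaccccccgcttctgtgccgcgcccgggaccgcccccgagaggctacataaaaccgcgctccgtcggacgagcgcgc

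The motifs were searched on both strands of windows of 300 bases, which add the 50 bases after the start. No motif contains another. CATTCC, or GGAATG on the other strand, is the core bound by TEAD factors, the DNA-binding partners of YAP. It was in none of the 5 windows and in 14.7% of all 32817 promoter windows. TGANTCA, the AP-1 motif, was in none of the 5 and in 7.81% of all windows. TGACGTCA was in 1.79% of all windows, once in that of Dusp1 at 143 to 136 bases before the start and at 2 places in that of Dusp8. The annotated genes of Dusp3 and Dusp16 reach further upstream than these starts, to chr11:101987013 and chr6:134807063, so each window covers 1 of the possible starts. A match is a stretch of letters and not a measured site, and a window without one says nothing about the factor elsewhere in the gene.

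Dusp3 had the largest change among the members in both experiments. The gene lies at chr11:101971141-101987013. Its brightest probe set, 1434472_PM_at, read 6.80, 6.85 and 6.65 in the YAP controls and 8.85, 8.76 and 8.62 with overexpression. Every overexpression array was above every control, with a gap of 1.77 between the nearest arrays. The log2 difference was 1.98 (SE 0.08, n = 3 and 3), or 3.94-fold, at rank 16 from the highest of all 45037 probe sets. With Nf2 loss the same probe set read 5.87, 5.92 and 5.87 in controls and 6.42, 6.53 and 6.49 in knockouts. Here too the groups did not overlap, with a gap of 0.50. The difference was 0.59 (SE 0.08), or 1.51-fold, at rank 122 from the highest. The YAP difference exceeded the Nf2 difference by 1.38 (SE 0.12).

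The other probe sets of Dusp3 shared its direction with YAP overexpression and were flat with Nf2 loss. Probe set 1456769_PM_at read 4.99, 4.87 and 5.39 in YAP controls and 6.75, 6.38 and 6.30 with overexpression, a difference of 1.39 (SE 0.18). Probe set 1425608_PM_at read 5.19, 5.38 and 5.10 against 6.41, 6.39 and 6.09, a difference of 1.07 (SE 0.13). On each of the 3 probe sets every overexpression array lay above every control array. At E13.5 1456769_PM_at read 3.56, 3.89 and 3.61 against 4.17, 3.53 and 3.63, and 1425608_PM_at read 4.10, 4.18 and 4.48 against 4.35, 4.18 and 4.50. Both pairs of groups overlapped and both differences were 0.09 (SE 0.18 and 0.13). The higher Dusp3 in the knockouts therefore rests on the brightest of the 3 probe sets. No detection call comes with the values, so it is not known whether the dimmer probe sets were above background in the Nf2 experiment.

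**Figure D1:**
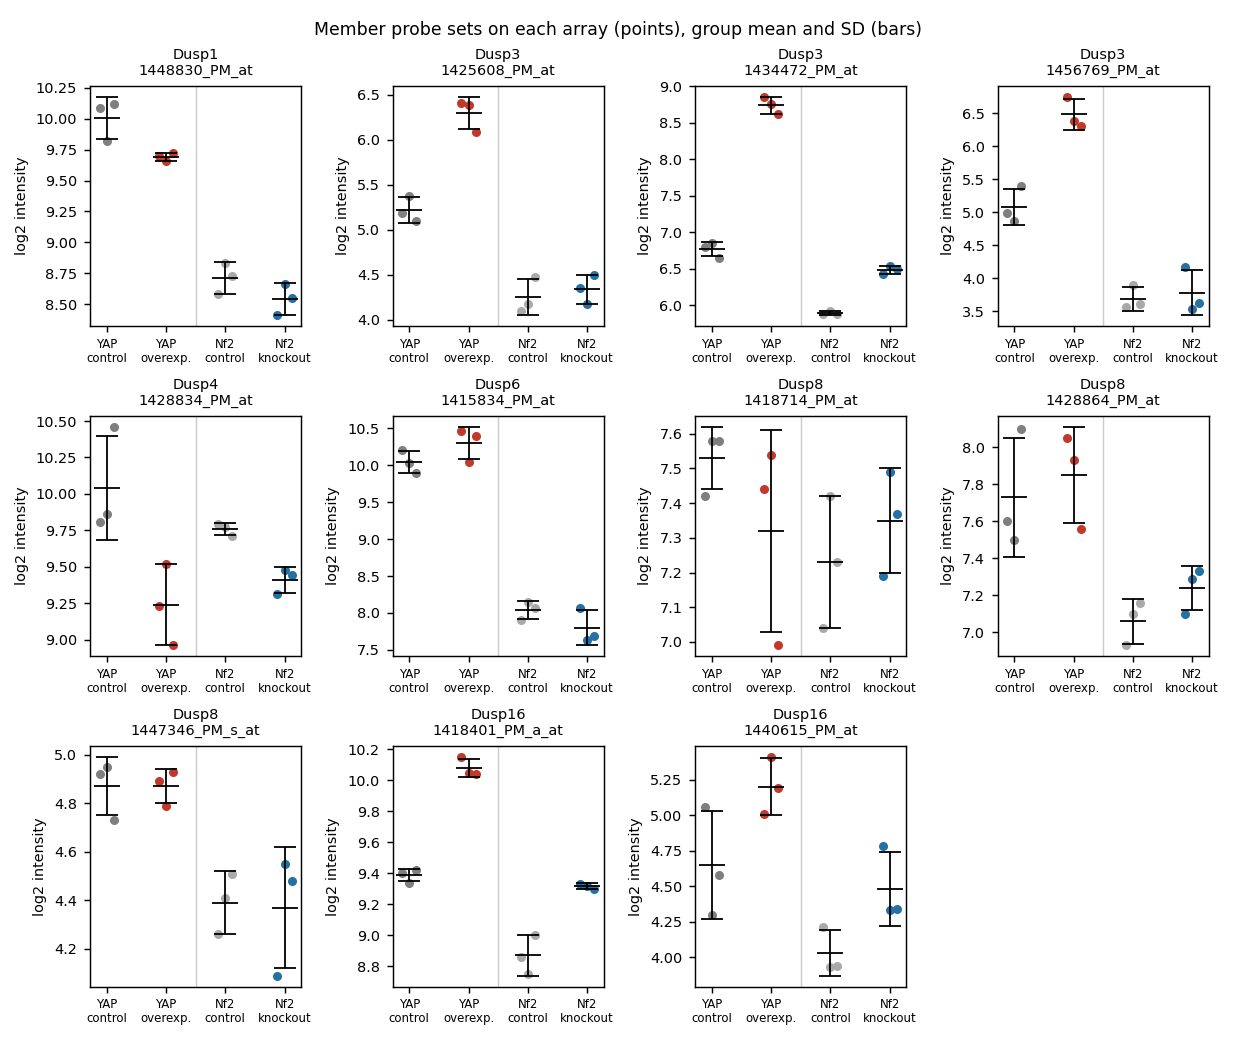
Log2 intensity (vertical axis, a separate range in each panel) of the 11 member probe sets on each array, by group, with points for the 3 arrays and black bars for the group mean and SD. The brightest Dusp3 probe set and the brighter Dusp16 probe set were separated from their controls in both experiments, and Dusp4 was separated in the other direction. Levels of the E11.5 and E13.5 experiments are not comparable.

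Dusp16, an enzyme that acts on JNK and p38, was the other member that was higher in both experiments. The gene lies at chr6:134715468-134807063. Its brighter probe set, 1418401_PM_a_at, read 9.40, 9.34 and 9.42 in YAP controls and 10.15, 10.05 and 10.04 with overexpression. Every overexpression array was above every control, with the groups 0.62 apart. The difference was 0.69 (SE 0.08), or 1.62-fold. At E13.5 this probe set read 8.86, 8.75 and 9.0 in controls and 9.33, 9.32 and 9.30 in knockouts, without overlap. The difference was 0.45 (SE 0.08), or 1.36-fold, and the YAP difference exceeded it by 0.25 (SE 0.11).

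The dimmer probe set of Dusp16, 1440615_PM_at, had the same sign in both experiments. It read 5.06, 4.30 and 4.58 against 5.01, 5.41 and 5.19 in the YAP experiment, where control replicate 1 lay among the overexpression arrays. It read 4.21, 3.93 and 3.94 against 4.78, 4.33 and 4.34 in the Nf2 experiment, where the groups were apart by 0.12. The differences were 0.56 and 0.46 (SE 0.18 each). Unlike in Dusp3, the probe sets of Dusp16 gave like sizes in the Nf2 experiment, 0.45 and 0.46.

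Dusp4, the nuclear phosphatase with 1 probe set, was lower in both experiments. The gene lies at chr8:34807610-34819894. It read 9.81, 9.86 and 10.46 in YAP controls and 9.23, 9.52 and 8.96 with overexpression, a difference of -0.81 (SE 0.16), or 1.75-fold lower. Control replicate 3 stood highest and overexpression replicate 3 lowest, and the groups were 0.29 apart. With Nf2 loss it read 9.79, 9.77 and 9.71 against 9.31, 9.48 and 9.44, a difference of -0.35 (SE 0.16), or 1.27-fold lower, with the groups 0.23 apart. The YAP difference was lower by -0.46 (SE 0.23) than the Nf2 difference.

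Markers of neurons moved with Dusp4 in the YAP experiment. Of 9 measured genes of postmitotic neurons, 8 fell at a limma adjusted p under 0.05, none rose, and their mean log2 level ran from 9.13 to 9.43 in controls and from 8.19 to 8.78 with overexpression. The array order was that of Dusp4 on the overexpression side, with the neuron mean at 8.45, 8.78 and 8.19 for replicates 1, 2 and 3. In controls the highest neuron mean was again that of replicate 3, with 9.25, 9.13 and 9.43. Genes of intermediate progenitors, the dividing precursors of cortical neurons, fell in 8 of 10 cases and none rose, with means from 9.0 to 9.23 in controls and from 8.25 to 8.53 with overexpression. The list for GABAergic neurons and ventral telencephalon had 9 of 10 genes lower at that threshold and none higher, with means from 6.65 to 7.24 and from 5.49 to 5.81. Of 10 radial glia genes 1 rose and 2 fell, with a median of -0.08. Of all genes 2.06% rose and 2.92% fell with YAP overexpression. No neuron marker was called with Nf2 loss, where 0 of 9 had an unadjusted p under 0.05. Their differences were all below 0 there, with a median of -0.11 and the nearest to 0 at -0.01. The neuron mean was lower in the knockout of every same-numbered pair, at 9.54 and 9.41, 9.64 and 9.52, and 9.63 and 9.55. The GABAergic and ventral list also lay below 0 in every gene with Nf2 loss, with a median of -0.28 and the nearest to 0 at -0.05. None of its genes was called, and 2 of 10 had an unadjusted p under 0.05, Gad1 (-0.46) and Lhx6 (-0.44). The list means ran from 3.81 to 4.38 in controls and from 3.73 to 3.86 in knockouts, near or below the array medians of 4.3 to 4.42. Intermediate progenitor genes had a median of 0.01 with Nf2 loss, from -0.16 to 0.17, and none was called. Radial glia genes had a median of 0.08, from -0.34 to 0.36. None of them was called, and 3 of 10 had an unadjusted p under 0.05. In bulk tissue, fewer cells of a type and less RNA per cell cannot be told apart, and the part of these cell types in the Dusp4 differences of both experiments was not tested.

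Dusp1, the other inducible nuclear phosphatase, was lower by a smaller amount. The gene lies at chr17:26505591-26508472. It read 10.09, 9.82 and 10.12 in YAP controls and 9.70, 9.66 and 9.72 with overexpression, so the groups were separate by 0.10. The difference was -0.32 (SE 0.10), or 1.25-fold lower. In the Nf2 experiment it read 8.58, 8.83 and 8.73 against 8.41, 8.66 and 8.55. These groups overlapped, yet each knockout array was below the control with the same number, by -0.17, -0.17 and -0.18. Same-numbered arrays varied together over the whole array in that experiment, and the difference of -0.17 had an SE of 0.10 without and 0.08 with the number as a block.

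Dusp6, the ERK phosphatase, overlapped between groups in both experiments and had opposite signs in them. The gene lies at chr10:99263231-99267489. It read 10.20, 10.03 and 9.90 in YAP controls and 10.46, 10.05 and 10.39 with overexpression, a difference of 0.26 (SE 0.14). It read 7.91, 8.15 and 8.06 in Nf2 controls and 8.07, 7.64 and 7.69 in knockouts, a difference of -0.24 (SE 0.14). In each experiment 1 array of the changed group lay among the controls, overexpression replicate 2 and knockout replicate 1. The effects differed by 0.50 (SE 0.19).

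Dusp8, a phosphatase of the stress kinases known from brain and heart, showed no separation of groups on any of its 3 probe sets. The gene lies at chr7:142079487-142095907. Probe set 1428864_PM_at read 7.60, 7.5 and 8.10 against 8.05, 7.93 and 7.56 in the YAP experiment, with control replicate 3 the highest of the 6. Probe set 1418714_PM_at read 7.42, 7.58 and 7.58 against 7.44, 7.54 and 6.99, with overexpression replicate 3 the lowest. Probe set 1447346_PM_s_at read 4.92, 4.95 and 4.73 against 4.89, 4.79 and 4.93, and overlapped as well. The YAP differences of the 3 probe sets were 0.11 (SE 0.16), -0.20 (SE 0.14) and 0.00 (SE 0.12), and the Nf2 differences 0.18, 0.12 and -0.02 with the same SEs. The probe sets disagreed in sign with YAP and give no direction for this gene there. With Nf2 loss each knockout array was above the control with the same number on 2 of the 3 probe sets, by 0.17, 0.19 and 0.17 on 1428864_PM_at and by 0.15, 0.07 and 0.14 on 1418714_PM_at, although the groups overlapped.

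**Figure D2:**
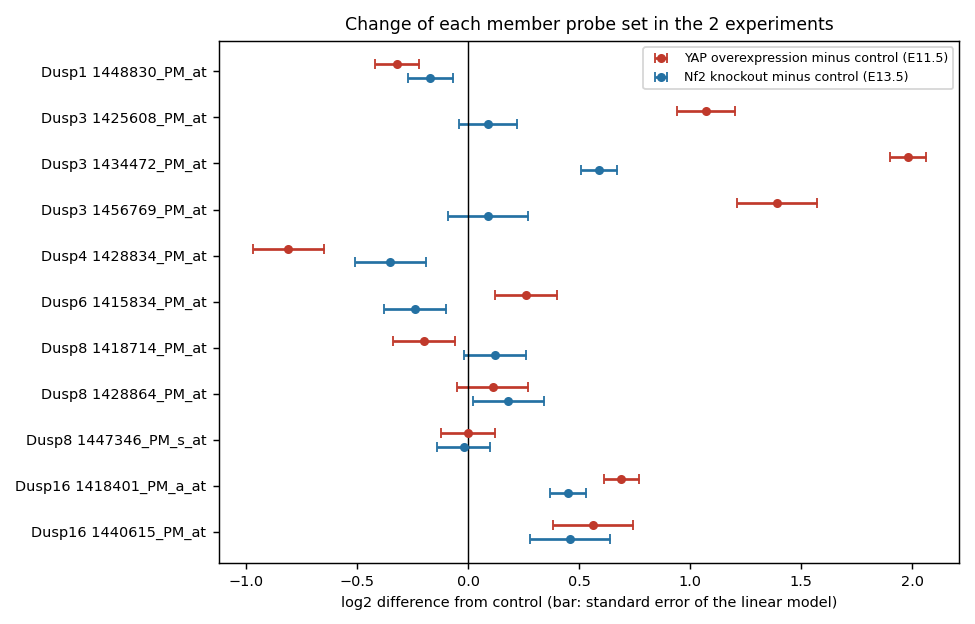
Log2 difference from control (horizontal axis) of each member probe set with YAP overexpression (red, E11.5) and Nf2 knockout (blue, E13.5), with the standard error from the linear model, 3 arrays against 3. Dusp3 reached 1.98 with YAP and 0.59 with Nf2 loss on its brightest probe set, Dusp16 lay above 0 and Dusp1 and Dusp4 below 0 in both experiments.

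As a count, 5 of the 11 probe sets passed an adjusted p under 0.05 in limma with YAP overexpression, 4 higher and 1 lower, against 3.78% of all probe sets (1.48% higher and 2.3% lower). The groups did not overlap in 6 of the 11, against 18.2% of all. With Nf2 loss 1 of the 11 passed, the brightest of Dusp3, against 0.133% of all, and 4 did not overlap, against 10.8%. The median difference of the members was 0.26 and 0.09, and that of all probe sets -0.01 and 0.00. Because the members were picked from these contrasts, these shares support nothing and are given to set the scale. The call of Dusp3 in the Nf2 experiment was lost when any 1 of its 6 arrays was left out, with differences from 0.57 to 0.62 over all alternatives. That of Dusp4 in the YAP experiment was lost without overexpression replicate 1 or 3 or control replicate 3, with only the 6 arrays of the experiment and with the replicate block, and its difference ranged from -0.95 to -0.60. The YAP calls of the 3 Dusp3 probe sets and of Dusp16 were kept in every alternative that could be run for them.

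The genes nearest to Dusp3, Dusp16 and Dusp4 in pattern were found by the root mean square distance over all 12 arrays, after the mean of the experiment's own controls was subtracted. This used 1 probe set a gene, the brightest, and members that differed by at least 1.5-fold in either experiment. Nearest to Dusp3 were Slc2a3, a glucose transporter gene, at a distance of 0.158, Ccn1, a secreted matrix protein gene used as a YAP reporter, at 0.24, and Ptpn14, a tyrosine phosphatase gene, at 0.243. The median distance of all genes to Dusp3 was 1.05. Slc2a3 differed by 1.74 and 0.50 in the YAP and Nf2 experiments, Ccn1 by 1.93 and 1.02, and Ptpn14 by 1.66 and 0.66. The 4 probe sets of Slc2a3 ranged from -0.18 to 1.83 with YAP and the 3 of Ptpn14 from 0.48 to 1.66, so their places rest on the probe set used.

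Nearest to Dusp16 were Palld, which encodes the actin-associated protein palladin, at 0.0791, Asns, the gene of asparagine synthetase, at 0.101, and 2500002B13Rik at 0.105, where the median of all genes was 0.439. Palld differed by 0.73 and 0.41, Asns by 0.70 and 0.37, beside 0.69 and 0.45 for Dusp16, and the 3 probe sets of Palld ranged from 0.04 to 0.73 with YAP. Nearest to Dusp4 were Cbfa2t3, a transcriptional corepressor gene, at 0.101, Snap25, which encodes a protein of the synaptic vesicle fusion machinery, at 0.112, and Reln, the gene of the secreted protein reelin, at 0.119, against a median of 0.492. All 3 had a high value in YAP control replicate 3, as Dusp4 did, and Snap25 differed by -0.80 and -0.19 where Dusp4 differed by -0.81 and -0.35. The 3 probe sets of Cbfa2t3 ranged from -0.75 to -0.12 with YAP, so its place rests on the probe set used. The measure finds like values on these 12 arrays and says nothing about shared control.

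**Figure D3:**
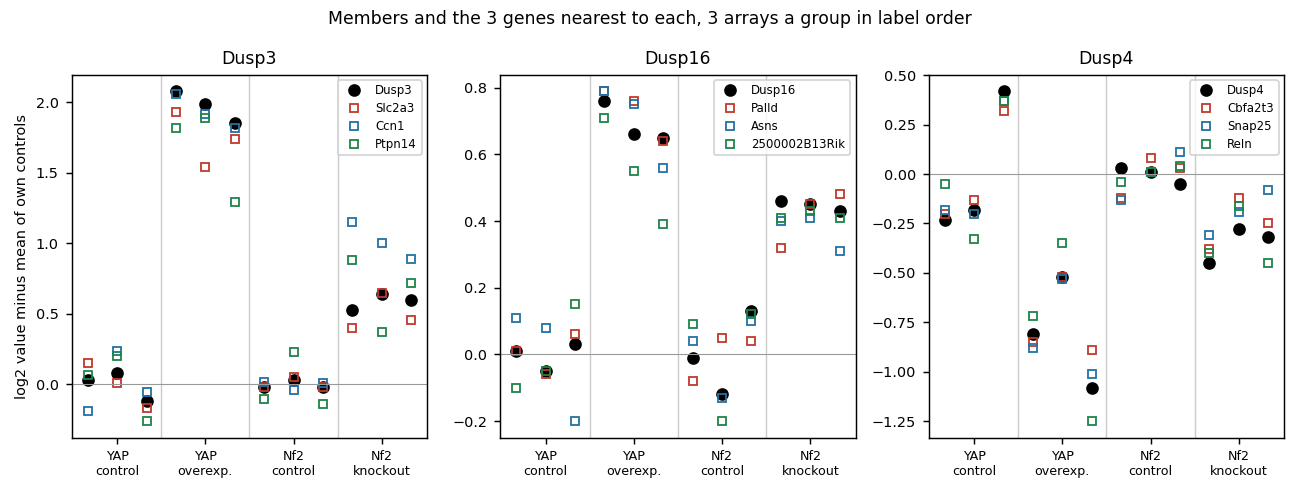
Log2 value of Dusp3, Dusp16 and Dusp4 (filled circles) and the 3 genes nearest to each (open squares) on the 12 arrays, each minus the mean of the controls of its own experiment (vertical axis), with the arrays in groups along the horizontal axis. With YAP overexpression Dusp3 and its 3 nearest genes lie above 0, Dusp4 and its 3 nearest below 0, and the Dusp4 set shares its high control array.

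The rest of the classical family was compared with the members by the same fit, and here p-values are given. These genes were left over from a choice made on the same values. This list and those that follow were chosen with earlier results of these data known, so their p-values are not free of selection. Of 4 measured genes, Dusp2, Dusp7, Dusp9 and Dusp10, 2 rose with YAP overexpression, none fell and 2 were not called, where 4.98% of all genes were called by their brightest probe set, 2.06% higher and 2.92% lower. An unadjusted p under 0.05 was reached by 18.6% of all genes with YAP and by 5.81% with Nf2 loss. The list's median difference was 0.44, against -0.01 for all genes. Dusp10, a phosphatase of JNK and p38 like Dusp16, read 6.46, 6.42 and 6.54 in controls and 7.37, 7.18 and 6.77 with overexpression, a rise of 0.63 (SE 0.15, limma adjusted p = 0.0322). At E13.5 it read 5.80, 5.58 and 5.99 against 6.35, 6.20 and 6.52. That difference of 0.57 (SE 0.15) left no overlap but was not called (limma adjusted p = 0.409). Its other probe set differed by 0.11 and -0.07.

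Dusp9, an ERK phosphatase related to Dusp6, read 5.10, 5.02 and 5.01 in YAP controls and 5.48, 5.65 and 6.09 with overexpression, a rise of 0.70 (SE 0.13, limma adjusted p = 0.0116). Its other probe sets differed by 0.55 and 0.43 and were not called. With Nf2 loss the brightest differed by -0.09 (SE 0.13, limma adjusted p = 0.996). It read 3.67, 3.57 and 3.43 against 3.43, 3.60 and 3.38 there, below the array medians of 4.3 to 4.42. Whether Dusp9 was above background in that experiment is not known. Dusp2, a nuclear phosphatase of immune cells, differed by 0.24 and -0.10 (limma adjusted p = 0.36 and 0.996) and Dusp7, the third ERK phosphatase, by 0.03 and 0.05 (0.947 and 0.996). Dusp5 was not analysed here. No gene of this list was called with Nf2 loss, where 0.211% of all genes were, and 1 of 4, Dusp10, had an unadjusted p under 0.05.

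Among 17 measured atypical or related phosphatases besides Dusp3, 1 rose with YAP overexpression, none fell and 16 were not called, with a median of 0.03. The gene that rose was Dusp14, which encodes a small phosphatase without the docking domain, as Dusp3 does. It read 5.60, 5.99 and 5.97 in controls and 6.87, 7.31 and 7.04 with overexpression, a difference of 1.22 (SE 0.13, limma adjusted p = 0.000285), or 2.33-fold. With Nf2 loss it read 8.36, 8.56 and 8.29 against 8.58, 8.66 and 8.55, a difference of 0.19 (SE 0.13, limma adjusted p = 0.996). The difference between its 2 effects, 1.03 (SE 0.18), missed the threshold (limma adjusted p = 0.0602) but passed it with the replicate number as a block (limma adjusted p = 0.041). Without the block 0.175% of all genes passed it. None of the 17 was called with Nf2 loss and 0 had an unadjusted p under 0.05. Among 6 phosphatases of MAP kinases outside the DUSP family, limma called none in either experiment and 0 had an unadjusted p under 0.05.

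Of 11 measured MAP kinases, the enzymes on which these phosphatases act, 2 fell with YAP overexpression, none rose and 9 were not called. Their median was -0.05, and 4 had an unadjusted p under 0.05. Of all genes 2.06% rose, 2.92% fell and 18.6% had an unadjusted p under 0.05. Both MAP kinase genes that fell encode JNKs. Mapk10, the JNK of neurons, read 8.44, 7.52 and 7.72 in controls and 6.84, 7.37 and 6.55 with overexpression, a fall by 0.97 (SE 0.22, limma adjusted p = 0.0288). The neuronal markers given above fell too, with the same array order on the overexpression side but not in controls. Their part in the fall of Mapk10 was not tested. The other probe set of Mapk10 differed by 0.05. Mapk8 read 10.09, 10.10 and 10.19 against 9.76, 9.72 and 9.76, a difference of -0.38 (SE 0.09, limma adjusted p = 0.0438). Its 4 probe sets ranged from -0.38 to -0.16, so the one used was the lowest. None was called with Nf2 loss and 1 of 11 had an unadjusted p under 0.05. Of 22 kinases and adaptors upstream of them, limma called none in either experiment, with 2 and 0 at an unadjusted p under 0.05 and medians of 0.03 and 0.00.

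Of 20 measured ERK feedback and target genes, YAP overexpression raised 1 and lowered 1, and 18 were not called. Their median was 0.00, and 5 had an unadjusted p under 0.05. The shares of all genes were 2.06% higher, 2.92% lower and 18.6% at that unadjusted p. Fosl2, an AP-1 subunit gene, rose from 4.84, 4.39 and 4.87 to 6.83, 5.71 and 5.63, by 1.36 (SE 0.25, limma adjusted p = 0.00859), though its other probe set differed by -0.08. Etv1, an ETS factor gene, read 8.46, 8.23 and 8.54 against 7.76, 7.75 and 7.70, a difference of -0.67 (SE 0.17, limma adjusted p = 0.0455), and its other probe sets were nearer 0, the nearest at -0.05. The Sprouty genes Spry1, Spry2 and Spry4, which like Dusp6 restrain FGF signalling, differed by 0.19, -0.17 and -0.32 and were not called. With Nf2 loss limma called none of the 20, and 4 had an unadjusted p under 0.05, against 5.81% of all genes. All 4 were lower: Spry1 (-0.32), Spry2 (-0.33, its other probe set -0.01), Etv5 (-0.46) and Phlda1 (-0.22). The list was not lower throughout: Spry4 differed by 0.04, and the 20 genes ranged from -0.46 to 0.30. Dusp6, whose groups overlapped, differed by -0.24. The median of the 20 genes was -0.14 with Nf2 loss, against 0.00 for all genes.

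Of 18 effectors of JNK and p38 and stress genes, YAP overexpression raised 3 and lowered 1, and left 14 uncalled. Their median was 0.04, and 8 had an unadjusted p under 0.05. The shares of all genes were 2.06% higher, 2.92% lower and 18.6% at that unadjusted p. Atf3, a stress-induced transcription factor gene, read 5.07, 5.14 and 5.03 against 6.81, 6.15 and 6.78, a rise of 1.5 (SE 0.15, limma adjusted p = 0.000157). Jun, which encodes the substrate that JNK is named for, rose by 0.43 (SE 0.09, limma adjusted p = 0.0208) and Hspb1, a small heat shock protein gene, by 0.88 (SE 0.22, limma adjusted p = 0.0486), though the 4 probe sets of Hspb1 ranged from -0.11 to 0.88. Gadd45g, which belongs to the intermediate progenitor markers as well, fell by 0.62 (SE 0.09, limma adjusted p = 0.00276). With Nf2 loss limma called none of the 18 and 0 had an unadjusted p under 0.05, with a median of -0.02.

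**Figure D4:**
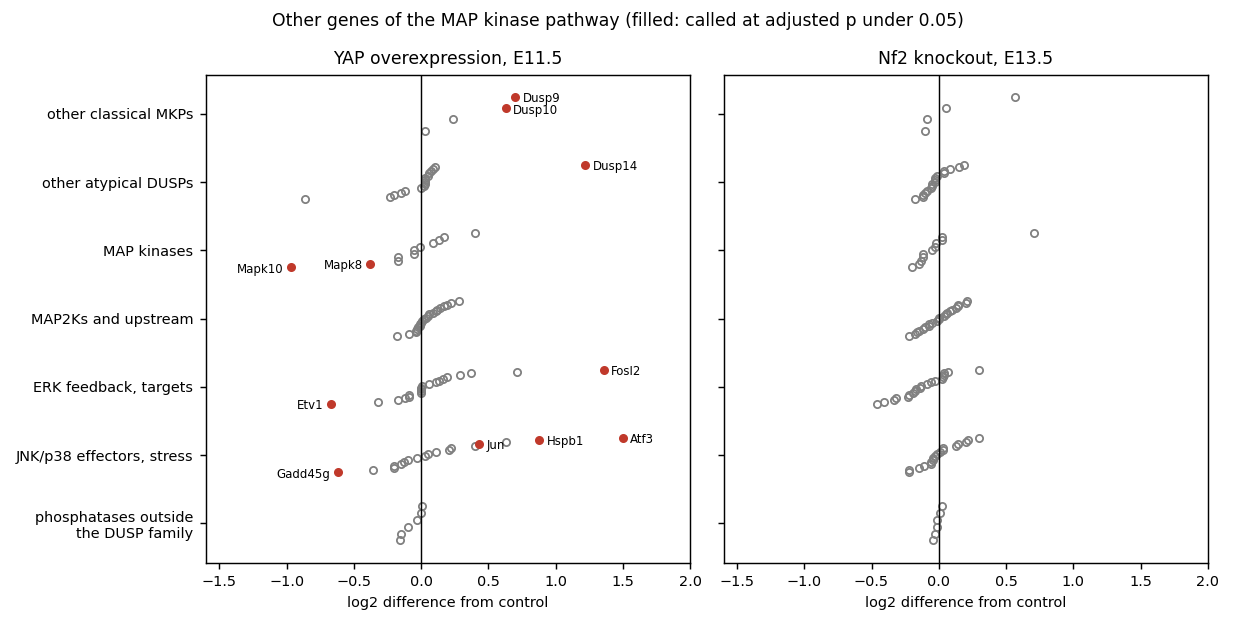
Log2 difference from control (horizontal axis) of the other genes of the MAP kinase pathway by list (vertical axis), each by its brightest probe set, with YAP overexpression on the left and Nf2 knockout on the right; filled red points passed an adjusted p under 0.05 in limma. With YAP 7 points are higher and 4 lower past that threshold; with Nf2 loss there are none.

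Over all 7 lists, 98 genes were measured of 112, and 11 were called with YAP overexpression, 7 higher and 4 lower, with a median of 0.02. Of all genes by their brightest probe set 4.98% were called, 2.06% higher and 2.92% lower. Of the 11, Dusp14, Atf3, Gadd45g and Fosl2 stayed called with any 1 array left out, and each of the other 7 lost its call without at least 1 of them. Mapk8 and Etv1 were lost whichever of the 6 arrays was left out. Array weights also removed the calls of Mapk8, Etv1 and Hspb1, and subtracted array medians that of Mapk8. Dusp10 was lost without any 1 of the controls or overexpression replicate 1 or 2, and Hspb1 without the same arrays. Mapk10 was lost without control replicate 1 or 3 or overexpression replicate 1 or 3, Jun without control replicate 1 or 2 or overexpression replicate 1, and Dusp9 without control replicate 3. The count was 5 without control replicate 1 or 3, and 6 without control replicate 2 or overexpression replicate 1.

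Markers of cells that are not neural were set beside the members too. With YAP overexpression none of 10 endothelial, 9 mesenchymal, 10 microglial and 7 erythroid genes was called by limma, with 0, 2, 0 and 2 at an unadjusted p under 0.05. With Nf2 loss none was called either, with 4, 1, 4 and 4 at an unadjusted p under 0.05, against 5.81% of all genes. The microglial mean ran from 5.49 to 5.54 in Nf2 controls and from 5.80 to 5.88 in knockouts, and the erythroid mean from 8.34 to 8.56 and from 8.04 to 8.15. Endothelial means overlapped, from 6.26 to 6.41 and from 5.74 to 6.30. The part of these cells in the Nf2 differences of Dusp3, Dusp16 and Dusp4 was not tested.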

How the data were processed

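Values were the authors' deposited log2 intensities per probe set, to 2 decimals, for 12 arrays in 4 groups of 3. Per the labels, 100 ng of total RNA was labelled with a 3' IVT kit. RMA, Expression Console 1.1 from Affymetrix and Partek 6.5 are listed per the submitters' processing notes, with no roles given. Array medians differ between the experiments, so their levels were not compared. RMA is known to shrink differences at low intensity, and the number of arrays limits the precision.

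Gene names came from the platform annotation of 2016: of 45037 probe sets, 28898 had 1 gene symbol, 551 several and 15588 were not listed. Of the single-gene probe sets, 28689 were updated by Entrez ID. With limma 3.58.1, 1 mean per group was fitted for each of the 45037 probe sets in R 4.3.3 (8 residual and 4.622 prior degrees of freedom), with Benjamini-Hochberg adjustment over all of them and two-sided p. "Called", "rose" and "fell" mean an adjusted p under 0.05. Pathway and marker genes were read from their brightest probe set by the mean of the 12 arrays. The fit was tested on simulated data.

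The members and lists were chosen with earlier results of these data known. All members and Dusp2, Dusp5, Dusp7, Dusp9 and Dusp10 were to be named, with up to 4 called genes a list and direction, and the nearest 3 genes in pattern. The Sprouty genes, Etv5, Phlda1, Ier3, Gad1 and Lhx6 were named after their values were seen. Dusp13b and Styxl2 were read under their older names, Dusp13 and Dusp27. Equal replicate numbers were checked for pairing by the correlation of residuals from group means. These were 0.296, 0.205 and 0.268 for replicates 1, 2 and 3 of the Nf2 experiment, above every unequal pair (highest -0.0316). Its numbers were therefore treated as possible pairs. In the YAP experiment they were 0.117, -0.141 and -0.147, with 0.26 for control 2 and overexpression 3, and its numbers were not. With 3 arrays a group such correlations cannot establish a pairing. Alternatives were a replicate block, quantile normalization, subtracted array medians, a filter on dim probe sets (mean above 4.74), array weights, an intensity trend, 1 probe set a gene, other probe set types, only the experiment's own arrays, and each array left out.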

Additional observations from a re-analysis of the deposited data

Results flagged for a closer look

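Atf3 was marked because its change with YAP overexpression differed from its change with Nf2 loss by the test of the difference itself. It rose by 1.5 (SE 0.15) with YAP and differed by 0.14 (SE 0.15) with Nf2 loss, and the effects differed by 1.36 (SE 0.21, limma adjusted p = 0.0269). It read 3.60, 3.70 and 3.45 in Nf2 controls and 3.65, 3.82 and 3.69 in knockouts, so the groups overlapped there. These values lay below the array medians of 4.3 to 4.42, and whether Atf3 was above background there is not known. The filter on dim probe sets removed Atf3 and gave no value. In all 18 other alternatives the difference kept its direction, from 1.25 to 1.58. It was called in 6 of them and not in 12 (limma adjusted p from 0.00098 to 0.0929). It was not called with the replicate block (limma adjusted p = 0.0864) or without any 1 array other than YAP overexpression replicate 2. The experiments also differ in age and tissue, so these cannot be told apart from the genotype in such a difference. Groups of 3 arrays were too small to be searched for outlying arrays.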

How the results depend on the processing

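All 282 alternative values of the 11 member probe sets moved by less than 1 SD between replicates. Most of them could hardly have done otherwise, so this says little about how robust the differences are. An intensity trend, a replicate block, the dim filter and a fit of the experiment's own arrays left every difference they gave unchanged. Leaving out 1 array of so small a group shifts its mean by less than 1 SD of that group. No called member changed sign. Of the others with Nf2 loss, Dusp3 1456769_PM_at (0.09, from -0.11 to 0.21) and Dusp8 1447346_PM_s_at (-0.02, from -0.11 to 0.12) did, and with YAP Dusp8 1447346_PM_s_at lay on either side of 0 (from -0.06 to 0.05). The calls over all probe sets were less steady. With YAP overexpression 1704 were called, 1078 with 1 probe set a gene, 648 with only the 6 arrays of the experiment and from 784 to 2014 with 1 array left out. Higher ones made up 39.1% of these calls and 49.2% after array medians were subtracted, which moved the median of all probe sets by 0.03. With Nf2 loss 60 were called, and from 21 to 32 with 1 array left out. For the difference of the effects 54 were called, 92 without dim probe sets, 84 with array weights, 142 with an intensity trend and from 29 to 208 with 1 array left out. Of the pathway genes, 11 were called with YAP, 4 with only the 6 arrays of the experiment and from 5 to 9 with 1 array left out. The 4 were Dusp14, Atf3, Gadd45g and Etv1, while Fosl2 was not called there (limma adjusted p = 0.0685). None was called with Nf2 loss in any alternative run.

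With the replicate number as a block, calls numbered 1164 for YAP, 44 for Nf2 and 25 for the difference. Whether equal numbers mark paired arrays is not known in either experiment. In the Nf2 experiment, where same-numbered arrays varied together, the block changed no call of a member or pathway gene. In the YAP experiment Dusp4, Mapk10, Etv1 and Jun were not called with the block. Ier3, an immediate early gene (0.71, limma adjusted p = 0.0572), was called with it (0.0447) and in 4 of its other alternatives. Of the differences between effects, Dusp14 gained a call with the block and Atf3 lost it. Dusp16 1418401_PM_a_at was called with Nf2 loss without dim probe sets, with array weights, with an intensity trend and with 1 probe set a gene. The cause of these changes was not tested. The alternatives that leave out arrays or probe sets also have fewer of them. The filter on dim probe sets removed 1440615_PM_at of Dusp16 and 1447346_PM_s_at of Dusp8, so they have no value there.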

Other observations

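Dusp26, an atypical phosphatase gene that is active in neurons, had the lowest difference among the phosphatases outside the members with YAP overexpression, -0.86 (SE 0.26), and was not called (limma adjusted p = 0.0988). Mapk12, which encodes a p38 kinase, had the highest difference among the genes of the 7 pathway lists with Nf2 loss, 0.71, and was not called either. Both were picked out after their values were seen. The brightest Fosl2 probe set did not overlap between groups in either experiment, as was so for 18.2% (YAP) and 10.8% (Nf2) of all probe sets. It pointed higher with YAP and lower with Nf2 loss (-0.17). The test of the difference between the effects, 1.53 (SE 0.35), did not pass (limma adjusted p = 0.152). The other Fosl2 probe set differed by -0.08 with YAP and -0.05 with Nf2 loss, and its effects differed by -0.03.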
